A study of Homo sapiens with 6 samples.

Results

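Described here are 10 genes that encode the mTOR kinase complexes and their closest regulators and substrates: MTOR, RPTOR, RICTOR, MLST8, DEPTOR, TSC1, TSC2, RHEB, RPS6KB1 and EIF4EBP1. They were picked by name, and each had 1 row among the 39012 genes of the expression table. Transcripts were measured by RNA-seq in Jurkat, an established human line from a T cell acute lymphoblastic leukaemia, with 3 libraries from control cells carrying an empty vector (EV) and 3 from cells stably overexpressing SCML4, a Polycomb-family protein. Cells of all 6 libraries had received 100 ng/ml of PMA with 1 µM of ionomycin for 6 h, agents that switch on protein kinase C and calcium signalling. There was no unstimulated group, so nothing here speaks to what the stimulation did. The labels name neither the promoter that drives SCML4 nor whether either line is a clone or a pool, and any other difference between the lines cannot be told apart from SCML4 itself. Separate cultures are not stated for the libraries of either group, so each p-value reflects library-to-library spread alone, possibly technical. One label also calls the line ouabain-induced, without further detail.

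mTOR is a large serine/threonine kinase that works in a pair of complexes. In mTORC1 it is joined by RPTOR (Raptor), which recruits substrates, and in mTORC2 by RICTOR, while MLST8 (mLST8, also called GβL) sits on the kinase domain in both and DEPTOR binds and inhibits both. RHEB, a small GTPase of the lysosome surface, switches mTORC1 on when it carries GTP, and the TSC1-TSC2 complex switches RHEB off by stimulating GTP hydrolysis. The kinase S6K1 (from RPS6KB1) and the translation repressor encoded by EIF4EBP1 are the best known mTORC1 substrates. In T cells the pathway couples antigen, cytokine and nutrient signals to growth, and its control lies mostly in protein phosphorylation and location, which RNA-seq does not measure.

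The series as a whole sets the frame for these genes. Libraries held 8953671 to 10336597 reads, worked out from the steps of the deposited FPKM values, and a level in CPM is a gene's reads for every 1000000 in its library. SCML4 had 7, 2 and 1 reads in the EV libraries and 570, 657 and 506 in the SCML4 libraries, so the libraries went with their labels. All 8 T cell markers listed were above 1 CPM on average, with summed levels of 2689 to 2902 CPM in EV and 2944 to 2977 CPM in SCML4. Of 12 markers of other cell types, 11 were in the table and summed to 23.9 to 35.7 CPM in EV and 32.8 to 36.0 CPM in SCML4, with PAX5, LYZ, FCGR3A, HBB and EPCAM at 0 in every library and CD79A and COL1A1 above 1 CPM. EV replicate 1 was the library unlike the rest, at -30.3 on the first principal component (36.5% of the variance) against 2.30 to 8.12. Results for the mTOR genes are therefore given with and without it.

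Of the 10 genes, 9 were well expressed in both groups and none differed between EV and SCML4 past the threshold of an adjusted p of 0.05. The test was limma-trend on log2(CPM + 1) over the 14156 genes with at least 10 reads on average, with Benjamini-Hochberg adjustment over all of them. The smallest adjusted p among the 9 was 0.865. Over all genes 1 passed, SCML4, which is 0.00706% of those tested. At an unadjusted p under 0.05 there was 1 of the 9, MLST8, against 5.27% of all genes. On the same reads limma-voom also gave 0 of the 9 past the threshold and 1 at an unadjusted p under 0.05. Over all genes 746 were under 0.05 unadjusted in limma-trend and 746 in limma-voom. In 1 of the 9, again MLST8, the values of the groups did not overlap, against 11.6% of all genes. Differences were above 0 in 5 and below 0 in 4 of the 9, against 52.4% above 0 over all genes, and their median was 0.06 in log2 against 0.01.

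**Figure D1:**
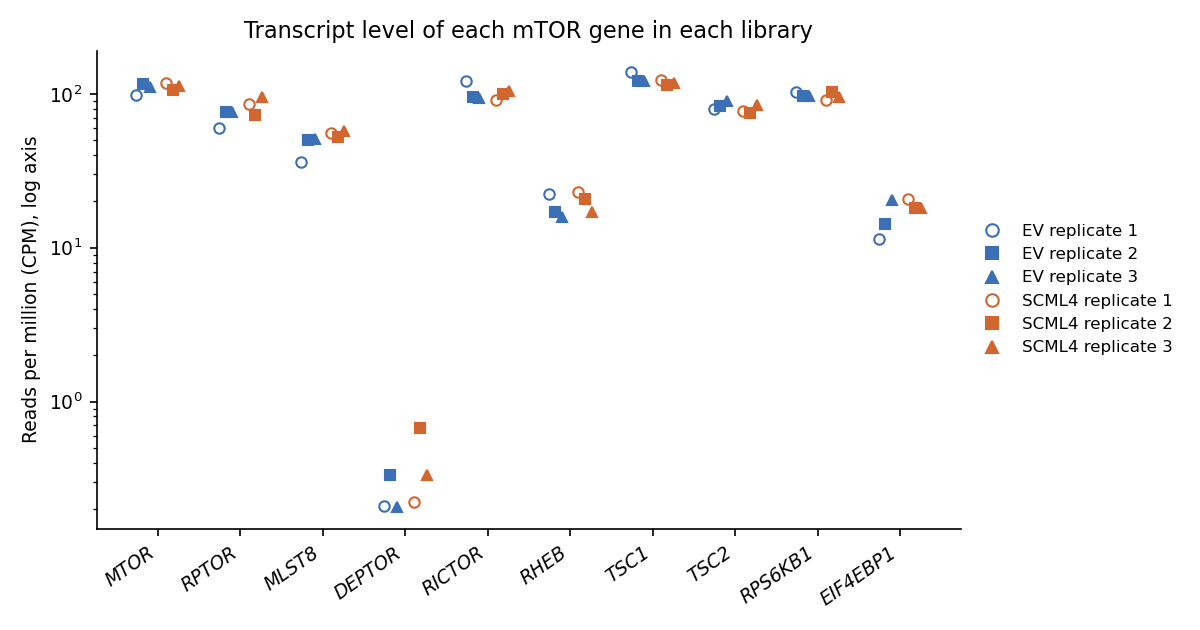
Level of each of the 10 mTOR genes in each of the 6 libraries, in CPM on a log axis, with EV in blue, SCML4 in orange and a marker shape for each replicate number. In 9 genes the 6 values lie between 11.3 and 138 CPM, while DEPTOR lies at 0.207 to 0.677 CPM.

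MTOR, the kinase itself, was found at nearly the same level in the groups. It stood at 98.1, 116 and 110 CPM in EV replicates 1, 2 and 3 and at 118, 107 and 113 CPM in the SCML4 replicates. EV replicate 1 was the lowest of the 6 and the groups overlapped. Means were 108 ± 8.94 and 113 ± 5.79 CPM (mean ± SD, n = 3 each). SCML4 minus EV was 0.06 in log2 (SE 0.09, 95% interval -0.12 to 0.25), equal to 0.919 to 1.19 in fold (adjusted p = 0.932, limma-trend). Without EV replicate 1 the difference was -0.00406. The 945 to 1102 reads per library set a counting error of about 3.10%, below the coefficient of variation of 8.28% in EV and 5.14% in SCML4. Over the 6 libraries the genes whose log2 levels went most closely with MTOR, among 14155 compared, were SLC25A10 (Pearson r = 0.998), CAMK2N2 (0.992) and CDK2AP2 (0.990). These coefficients describe 6 libraries in which EV replicate 1 stood apart. They are the highest of 14155 over 6 values each, so picking alone raises them, and they were not tested.

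RPTOR, the subunit that defines mTORC1, stood at 60.3, 76.4 and 76.4 CPM in EV and at 86.2, 72.8 and 95.4 CPM in SCML4. SCML4 replicates 1 and 3 lay above all EV libraries and SCML4 replicate 2 below EV replicates 2 and 3. Means were 71.05 ± 9.29 and 84.8 ± 11.4 CPM. SCML4 minus EV was 0.25 in log2 with a standard error of 0.12, the 95% interval running from -0.00061 to 0.50 (unadjusted p = 0.0505, adjusted p = 0.865, limma-trend). Without EV replicate 1 it was 0.14, with an adjusted p of 0.866.

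MLST8, the subunit shared by both complexes, was the gene whose groups were apart. It stood at 36.1, 49.96 and 51.0 CPM in EV and at 55.6, 52.8 and 57.9 CPM in SCML4. The lowest SCML4 value was just above the highest EV value, and EV replicate 1 was far below the other EV libraries. Means were 45.7 ± 8.31 and 55.4 ± 2.52 CPM. SCML4 minus EV was 0.29 in log2 (SE 0.12, 95% interval 0.02 to 0.56), equal to 1.01 to 1.47 in fold (unadjusted p = 0.0363, adjusted p = 0.865, limma-trend). Permuting the 6 libraries exactly, two-sided, gave p = 0.1, the smallest that this design allows. Without EV replicate 1 the difference was 0.13 and the adjusted p was 0.865. The size of the difference thus rested in large part on that library.

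RICTOR, the subunit that defines mTORC2, stood at 121, 96.0 and 94.2 CPM in EV and at 91.6, 99.6 and 105 CPM in SCML4. EV replicate 1 was here the highest of the 6, and the other 5 libraries were mixed. The means were 104 ± 14.8 and 98.8 ± 6.81 CPM and the log2 difference -0.06, with a 95% interval of -0.28 to 0.16 (adjusted p = 0.946, limma-trend). Without EV replicate 1 the sign turned, at 0.05.

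DEPTOR, the inhibitor within both complexes, was barely detected. It had 2, 3 and 2 reads in EV and 2, 7 and 3 reads in SCML4, or 19 in all. A count of 0 would still allow an expected count of up to 3 reads, taken here as a floor. Of the 6 counts 5 lay at or under it, though every library held at least 2 reads. The gene was below the 10 reads needed for the test, and no difference could be read at this depth. The FPKM-based alternative and the fit without a filter, which both admitted it, gave adjusted p values of 0.926 and 0.889 in limma-trend. In FPKM the gene stood at 1.05 in SCML4 replicate 2 and at 0.320 to 0.519 in the other libraries. It thus met the mean filter of 0.5 FPKM through that library, and neither p value is read as a result on DEPTOR.

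**Figure D2:**
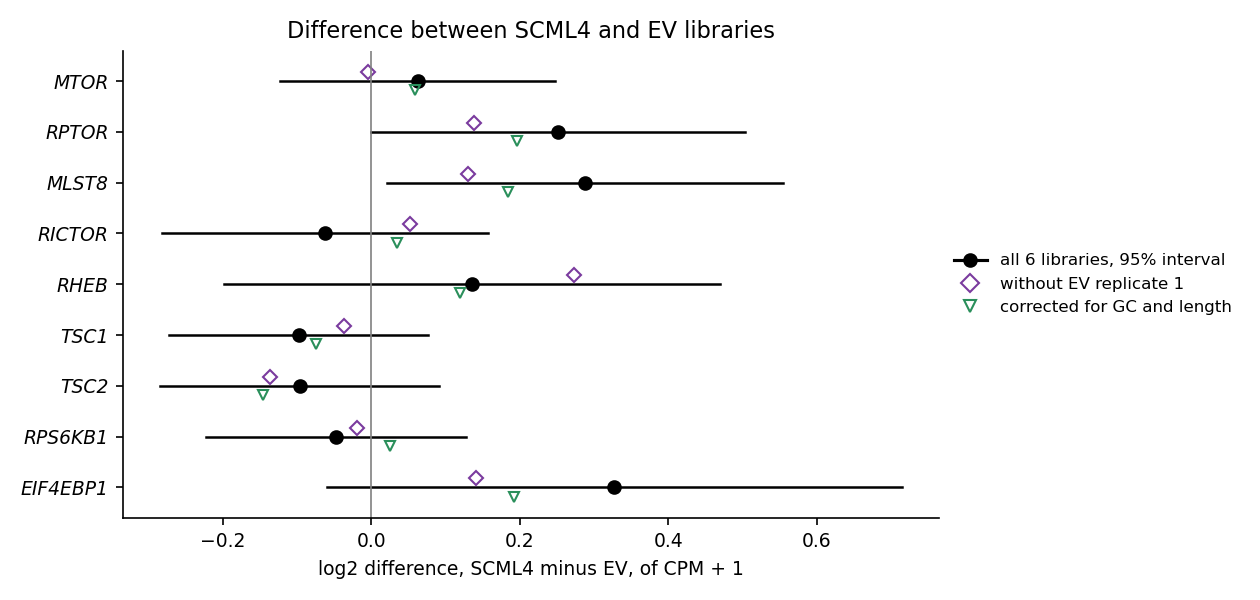
Log2 difference of SCML4 minus EV for the 9 genes tested, with the 95% interval from all 6 libraries (black), the value without EV replicate 1 (open diamond) and the value after correction for GC content and exonic length (open triangle). Intervals of 8 genes cross 0 and that of MLST8 runs from 0.02 to 0.56. All genes but RHEB and TSC2 lie nearer to 0 under both alternatives.

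The genes of the GTPase switch upstream of mTORC1 showed no difference past the threshold. RHEB stood at 22.2, 17.1 and 15.8 CPM in EV and at 22.9, 20.7 and 17.0 CPM in SCML4. High and low values occurred in both groups, and SCML4 replicate 1 and EV replicate 1 were the highest. The log2 difference was 0.14 with a 95% interval of -0.20 to 0.47 (adjusted p = 0.924, limma-trend), and 0.27 without EV replicate 1. RHEB had 152 to 214 reads per library, a counting error of about 7.41%, against a coefficient of variation of 18.5% in EV and 14.9% in SCML4.

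TSC1 (hamartin), which stabilises the complex, had the most CPM of the 10 genes, and stood at 138, 121 and 122 CPM in EV and at 122, 115 and 118 CPM in SCML4. EV replicate 1 was the highest and the remaining 5 spanned 115 to 122 CPM. Its log2 difference was -0.10 with a 95% interval of -0.27 to 0.08 (adjusted p = 0.90, limma-trend), and -0.04 without EV replicate 1. TSC2 (tuberin), the GTPase-activating subunit, stood at 80.0, 83.9 and 90.5 CPM in EV and at 77.3, 75.5 and 85.0 CPM in SCML4. SCML4 replicates 1 and 2 lay below all EV libraries and SCML4 replicate 3 among them. Its log2 difference was -0.10 with a 95% interval of -0.28 to 0.09 (adjusted p = 0.905, limma-trend), and -0.14 without EV replicate 1. TSC2 shares 3.96% of its exonic bases with PKD1 and 2.05% with NTHL1 on the opposite strand in GENCODE, and PKD1 had 6532 reads over the 6 libraries against 4641 for TSC2. Whether counting used strand is not given in the sources used here, so the part of such reads in the TSC2 value is uncertain. MLST8 likewise shares 3.79% with BRICD5, which had 213 reads.

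The genes of the mTORC1 substrates showed no difference past the threshold. RPS6KB1 stood at 103, 97.7 and 97.2 CPM in EV and at 90.9, 102 and 95.4 CPM in SCML4. SCML4 replicates 1 and 3 lay below all EV libraries and SCML4 replicate 2 among them. The coefficient of variation was 3.41% in EV and 6.05% in SCML4 against a counting error of 3.29%. Its log2 difference was -0.05 with a 95% interval of -0.22 to 0.13 (adjusted p = 0.947, limma-trend), and -0.02 without EV replicate 1. EIF4EBP1 stood at 11.3, 14.3 and 20.6 CPM in EV and at 20.7, 18.2 and 18.2 CPM in SCML4. EV replicate 3 lay among the SCML4 libraries and EV replicates 1 and 2 below them. Its log2 difference was 0.33, the largest of the 9 genes, with a standard error of 0.18 and bounds of -0.06 and 0.71 at 95% (adjusted p = 0.865, limma-trend), and it was 0.14 without EV replicate 1. Its coefficient of variation was 30.7% in EV and 7.71% in SCML4, against a counting error of 7.84%.

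These intervals show what size of change the libraries could have held. For 8 of the 9 genes the 95% interval lay within a 1.5-fold change in either direction, EIF4EBP1 being the exception with an upper bound of 1.64-fold. All 9 lay within 2-fold. With EV replicate 1 left out, 0 of the 9 passed the threshold (0.0991% of all genes) and 0 had an unadjusted p under 0.05 (6.7% of all genes) in limma-trend.

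EV replicate 1 was the highest or the lowest of the 6 libraries in 7 of the 9 genes. It was the lowest for MTOR, RPTOR, MLST8 and EIF4EBP1 and the highest for RICTOR, TSC1 and RPS6KB1, and over all genes it was an extreme in 56.2%. Its deviation went with the GC content of the transcript. MLST8 and EIF4EBP1, with a GC content of 64.1% and 65.5% in the longest coding transcript, lay 0.55 and 0.64 below the mean of the other 5 libraries in log2 (-0.55 and -0.64), and RPTOR at 59.8% lay at -0.42. RICTOR, at 36.5% GC, lay at 0.31. TSC2, at 60.5% GC, lay at -0.04, and RPS6KB1, at 38.2% GC, at 0.10. Across the 9 genes, which share 1 library and are not independent, the Spearman coefficient was -0.90, and over 13343 genes it was -0.52. Genes of 60% GC or more had a median deviation of -0.25 and genes under 40% a median of 0.20. The difference between SCML4 and EV had a Spearman coefficient with GC content of 0.57 over the 9 genes with all libraries. Over 13343 genes it was 0.35. Without EV replicate 1 it was 0.17 over the 9 genes. Once GC content and exonic length had been corrected for library by library, the log2 differences were 0.19 for MLST8, 0.20 for RPTOR and 0.19 for EIF4EBP1. RICTOR stood at 0.03 and TSC2 at -0.15. In limma-trend on these corrected values 0 of 9 were past the threshold (0.0225% of all genes). RPTOR, MLST8 and TSC2, 3 of 9, were at an unadjusted p under 0.05 (5.91% of all genes).

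**Figure D3:**
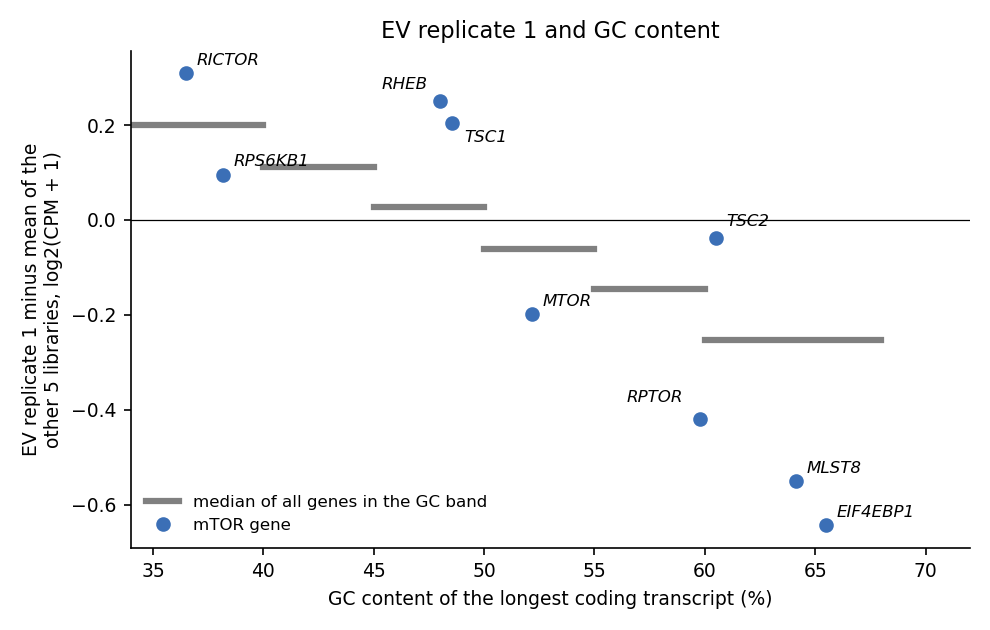
Gap between EV replicate 1 and the mean of the 5 remaining libraries, in log2(CPM + 1), against the GC content of the longest coding transcript in percent, for the 9 genes tested (points) and as the median of all genes in each GC band (grey bars, the outermost bands being open-ended). The points run from 0.31 for RICTOR to -0.64 for EIF4EBP1, and the bars from 0.20 to -0.25.

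Ratios between genes within a library do not depend on its depth, but they can keep the deviation of EV replicate 1 that went with GC content. In all, 6 were formed after the values had been seen. The ratio of RPTOR to RICTOR reads, the subunits that set mTORC1 apart from mTORC2, was 0.50, 0.796 and 0.811 in EV and 0.941, 0.730 and 0.908 in SCML4. EV replicate 1 was far below the other 5, which were mixed between 0.730 and 0.941. An exact two-sided permutation test gave p = 0.3 (adjusted over the 6 ratios, 0.45). The ratio of TSC1 to TSC2 reads was 1.505 ± 0.20 for EV and 1.498 ± 0.098 for SCML4 (n = 3 and SD as before, exact permutation p = 1). The ratio of MLST8 to MTOR reads was the only one of the 6 with the groups apart, at 0.368, 0.432 and 0.463 in EV and 0.471, 0.495 and 0.511 in SCML4. Its exact permutation p was 0.1, the smallest the design allows, and 0.45 after adjustment. EIF4EBP1 to RPS6KB1 was 0.156 ± 0.052 in EV and 0.199 ± 0.026 in SCML4 (exact permutation p = 0.3). RPTOR to MTOR and RICTOR to MTOR had exact permutation p values of 0.2 and 0.8. Without EV replicate 1 the EV mean for RPTOR to RICTOR was 0.803 in place of 0.702, against 0.860 in SCML4. For MLST8 to MTOR it was 0.447 in place of 0.421, against 0.492. For EIF4EBP1 to RPS6KB1 it was 0.179, for RPTOR to MTOR 0.677 (0.751 in SCML4) and for RICTOR to MTOR 0.843 (0.879 in SCML4). For TSC1 to TSC2 it was 1.396, further from the SCML4 mean.

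**Figure D4:**
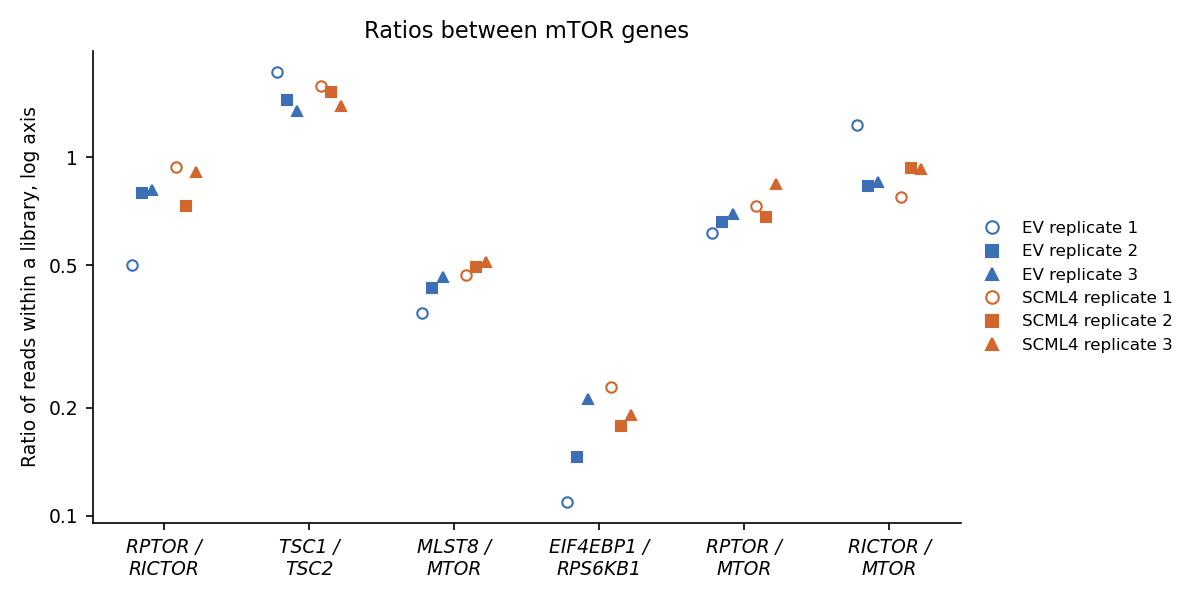
Ratio of reads of 6 pairs of mTOR genes within each library, on a log axis, with EV in blue, SCML4 in orange and a marker shape for each replicate number. EV replicate 1 is the extreme of the 6 libraries in all 6 ratios, and the groups are apart only for MLST8 to MTOR.

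The 9 detected genes spanned a narrow range of levels once transcript length was taken into account. Per kilobase of the longest coding transcript in GENCODE, mean levels over the 6 libraries ran from 9.29 CPM per kb for RHEB to 27.0 for MLST8. RPS6KB1 followed MLST8 at 17.9 and EIF4EBP1 came next at 16.9. TSC1 (14.1), TSC2 (12.9), MTOR (12.7), RPTOR (12.2) and RICTOR (10.6) lay close together, and the ranges of neighbours in this order overlapped from RPS6KB1 down to RHEB. DEPTOR, at 0.129, was apart from all. The order depends on the length used, since per kilobase of all annotated exonic bases EIF4EBP1 (16.0) and RPS6KB1 (12.7) came before MLST8 (11.7), and TSC2 (4.18) came below RHEB (5.46). DEPTOR was the lowest in both.

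Paralogues of the members were compared on the same scale. EIF4EBP2, which encodes another repressor of eIF4E, lay at 58.97 to 61.9 CPM per kb over the 6 libraries, above EIF4EBP1 at 11.1 to 20.3. Its log2 difference between the groups was -0.0034 with a 95% interval of -0.15 to 0.14. RPS6KB1 lay at 16.6 to 18.9 and its paralogue RPS6KB2, the S6K2 gene, at 9.38 to 12.8. RHEB lay at 7.62 to 11.1 and RHEBL1, a RHEB-like GTPase, at 1.94 to 3.78. RPS6KB2 and RHEBL1 had log2 differences of -0.11 and 0.22, with adjusted p values of 0.930 and 0.911 in limma-trend. Without EV replicate 1 the differences were -0.05 and 0.37. EIF4EBP3, another paralogue of EIF4EBP1, is named after its values had been seen and had 8 to 25 reads per library, at 1.202 to 4.04 CPM per kb. Its log2 difference was 0.35 (adjusted p = 0.877, limma-trend), and it lay at -0.66 in EV replicate 1 relative to the other 5 libraries. That library held 8 of its reads and the counting error was about 24.7%, so the -0.66 is uncertain.

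The wider pathway, 82 genes in 6 lists, likewise gave 0 genes past the threshold among 78 tested in limma-trend, and 0 in limma-voom. At an unadjusted p under 0.05 there were 4 in limma-trend and 6 in limma-voom, against 746 (5.27%) and 746 of all 14156 genes. Differences were above 0 in 50 and below 0 in 28, against 52.4% above 0 over all genes. Their median was 0.06 in log2 (0.03 without EV replicate 1). Groups did not overlap in 8 genes with SCML4 higher and 4 with EV higher, against 6.29% and 5.36% of all genes.

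Of 6 further subunits and assembly factors tested, 5 had differences above 0, with a median of 0.09, and without EV replicate 1 there were 3 above 0 with a median of 0.01. In this list 0 of 6 had an unadjusted p under 0.05 in limma-trend, against 5.27% of all genes, and 0 in limma-voom. MAPKAP1, the mSIN1 subunit of mTORC2, averaged 64.3 ± 2.30 CPM for EV and 71.2 ± 4.46 for SCML4, and its groups did not overlap (log2 difference 0.14, adjusted p = 0.865, limma-trend). Its difference was 0.12 without EV replicate 1. AKT1S1, the PRAS40 inhibitor of mTORC1, stood at 38.4 ± 8.50 and 39.7 ± 4.42 CPM. Its log2 difference was 0.06, and -0.10 without EV replicate 1. TELO2 and TTI2, which act with HSP90 in folding the kinase, had log2 differences of 0.11 and 0.17, which were 0.03 and 0.12 without that library. In the TSC-RHEB arm all 3 genes tested had differences above 0, as did 52.4% of all genes, and their median of 0.09 became 0.03 without EV replicate 1. DDIT4 (REDD1), a stress-induced activator of the TSC complex, stood at 83.8 ± 7.16 and 89.6 ± 9.75 CPM, and TBC1D7, the third subunit of that complex, at 32.4 ± 4.705 and 34.1 ± 0.683 CPM. Their log2 differences of 0.09 and 0.08 were both 0.03 without EV replicate 1.

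The amino acid branch brings mTORC1 to the lysosome. Of 13 Rag GTPase and Ragulator genes tested, 5 had differences above 0 and 8 below, with a median of -0.04 (0.06 without EV replicate 1). The Ragulator anchor LAMTOR1 had a log2 difference of 0.21, the Rag GTPase RRAGC one of -0.19 and the folliculin partner FNIP2 one of -0.16, with the groups apart for FNIP2. Without EV replicate 1 these were 0.14, -0.08 and -0.19. Of 17 genes of GATOR, KICSTOR and the amino acid sensors, 9 were above 0 and 8 below, with a median of 0.03, and without EV replicate 1 there were 8 above 0 with a median of -0.01. WDR24, of the activating GATOR2 complex, averaged 29.1 ± 2.88 CPM for EV and 35.3 ± 2.53 for SCML4, without overlap (log2 difference 0.27, unadjusted p = 0.0312, adjusted p = 0.865, limma-trend). WDR59, of the same complex, had a log2 difference of -0.20, and NPRL3, of the inhibitory GATOR1 complex, one of 0.25, against -0.12 and 0.11 without EV replicate 1. The WDR24 difference was 0.19 without that library. At 63.4% GC, WDR24 lay at -0.36 in EV replicate 1 relative to the mean of the remaining libraries.

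Among the 18 genes tested for upstream kinases, their subunits and phosphatases, 12 differences were above 0 and 6 below, with a median of 0.03. Without EV replicate 1 there were 13 above 0 with a median of 0.04. PRKAB1, the β1 regulatory subunit of the energy-sensing kinase AMPK, had the smallest p of any gene in the 6 lists. It stood at 126, 112 and 98.9 CPM in EV and at 133, 133 and 142 CPM in SCML4. All SCML4 libraries lay above all EV libraries. The log2 difference was 0.28 with a 95% interval of 0.08 to 0.48 (unadjusted p = 0.00933, adjusted p = 0.865, limma-trend), and without EV replicate 1 it was 0.37 with an adjusted p of 0.0839. INPP5D, the SHIP1 phosphatase, stood at 61.7, 62.7 and 63.4 CPM in EV and at 44.8, 54.6 and 58.3 in SCML4. Its groups were apart in the other direction, with a log2 difference of -0.26 (unadjusted p = 0.0281, adjusted p = 0.865, limma-trend). Leaving out 1 library in turn, the INPP5D difference ran from -0.33 to -0.15, and it was -0.27 without EV replicate 1. RPS6KA1, a kinase of the ERK pathway that phosphorylates TSC2, had a log2 difference of 0.16, and of 0.07 without EV replicate 1.

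Of 21 effectors and substrates 16 had differences above 0 and 5 below, against 52.4% above 0 over all genes. Their median was 0.07 in log2. Without EV replicate 1 the median was 0.08, with 15 above 0. ATG13, an autophagy factor that mTORC1 phosphorylates, averaged 112 ± 2.13 CPM for EV and 127 ± 7.67 for SCML4, without overlap (log2 difference 0.18, unadjusted p = 0.0354, adjusted p = 0.865, limma-trend), and had a log2 difference of 0.19 without EV replicate 1. TFE3, a transcription factor of lysosome genes held in the cytoplasm by mTORC1, stood at 43.6 ± 6.73 and 51.4 ± 2.07 CPM, also apart, and its log2 difference of 0.25 became 0.11 without EV replicate 1. MAF1, a repressor of RNA polymerase III, had a log2 difference of 0.23 and of 0.08 without that library. TFE3 and MAF1 have a GC content of 59.8% and 62.5%, and lay at -0.46 and -0.50 in EV replicate 1 relative to the other 5 libraries.

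**Figure D5:**
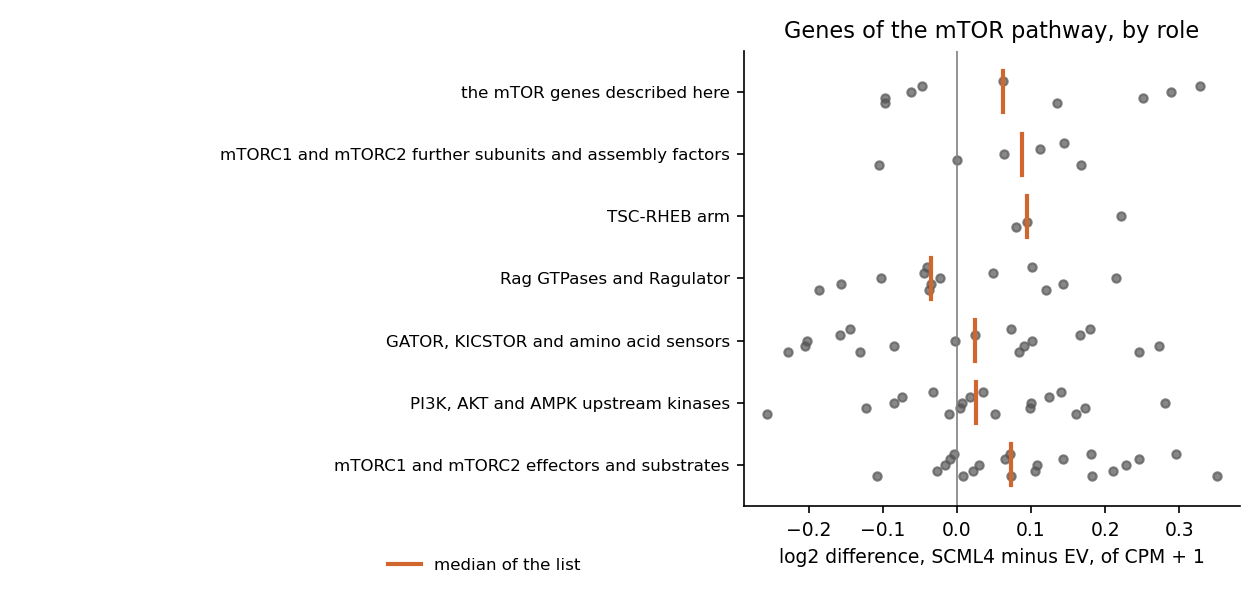
Log2 difference of SCML4 minus EV for each tested gene of the mTOR complexes and of 6 pathway lists grouped by role, with 1 point a gene and a line at the median of each list. Medians lie between -0.04 and 0.09, and the points of each list fall on both sides of 0 except in the TSC-RHEB arm, which has 3 genes.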

How the data were processed

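RNA-seq of 3 EV and 3 SCML4 Jurkat libraries was analysed. RNA came from a TRIzol extraction and went into a SMARTer mRNA kit, per the labels' protocols. FastQC, STAR, SAMtools and the build hg19 are named without versions, per the submitters' processing notes; the sources used here name no counting tool, annotation or source of gene lengths. The authors deposited FPKM, per the file headers. Reads were recovered from the FPKM steps, whole within 0.002 of a read, with slightly more room at high counts, for 99.996% of 23897 genes above 0; a divisor shared by all reads of a gene cannot be seen. The lengths implied by FPKM were not those of the genes (MTOR 119 bases, against 8677 in its longest coding transcript), so levels and tests use CPM and not FPKM. GENCODE 29 on GRCh38 gave lengths, GC content and overlaps; the build differs from hg19, so no coordinates are given.

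The comparison was SCML4 minus EV by limma-trend (limma 3.58.1, R 4.3.3) on log2(CPM + 1) for genes averaging at least 10 reads. Scripts were tested on simulated data. The members and lists were chosen with earlier results of these data known. Genes named were the members, SCML4, the 3 of smallest p in each list, 7 fixed partners or paralogues, and the 3 nearest to MTOR by Pearson r; markers and overlapping genes are named as such, and the ratios were chosen after the values had been seen. Intervals come from the spread between libraries, and floors cover counting error only. One gene that the rule would name is not reported here.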

Additional observations from a re-analysis of the deposited data

How the results depend on the processing

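Under 17 alternatives 0 of the members passed the threshold (smallest adjusted p = 0.614, limma-voom with library weights). Of 153 member values 147 kept their direction. The 6 reversed ones were all small: MTOR at -0.00570 and RICTOR at 0.0153 with library weights, RICTOR at 0.0349 and RPS6KB1 at 0.0252 after correction for GC content and exonic length, and MTOR and RICTOR when libraries were left out in turn (-0.00406 to 0.11 and -0.12 to 0.0517), the reversal coming without EV replicate 1. Among the other genes named, those reversed were AKT1S1 (-0.0726 with library weights, -0.0124 after GC correction, -0.10 to 0.21 leaving out libraries), TELO2 (-0.00166 after GC correction) and EIF4EBP2 (0.0309 after GC correction, 0.000609 under quantile normalization, -0.0215 to 0.0139 leaving out libraries). The cause was not tested. Genes past the threshold over the whole table numbered 1, and 0 on log2(FPKM + 1) (781 at an unadjusted p under 0.05; SCML4 then had an adjusted p of 0.0619), 2 with median-of-ratios size factors, 3 under quantile normalization, 14 with library weights, 3 after GC correction, and 1 to 14 leaving out libraries, the 14 being without EV replicate 1. With a replicate block there were 2, and 0 members. Replicate numbers are not said to pair libraries, and same-numbered libraries had correlations of deviations of -0.06, -0.11 and -0.05. Depth limits DEPTOR, with 2 to 7 reads per library.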
